A study of Mus musculus with 8 samples.

Results

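The G1 phase regulators described here are 10 genes: the D cyclins Ccnd1, Ccnd2 and Ccnd3, the E cyclin Ccne1, the kinases Cdk4 and Cdk6, and the inhibitors Cdkn1a, Cdkn1b, Cdkn1c and Cdkn2c. They were chosen by name, and all 10 were found among 20512 named genes with exon values and among 18655 named genes with intron values. RNA was compared between neural progenitor cells (NPC) and the embryonic stem cells (ESC) they were derived from. The ESC are the hybrid mouse line F1-21.6 (129Sv-Cast/EiJ), grown with leukaemia inhibitory factor and serum on fibroblast feeders whose division had been stopped with mitomycin C. The NPC are 1 clone differentiated from that line, so both groups share its hybrid genome, and a difference between them may belong to the clone. Each group had 2 biological replicates with 2 technical libraries each.

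Cells pass from G1 into S phase when D cyclins with CDK4 or CDK6, and then E cyclins with CDK2, phosphorylate the retinoblastoma family and free the E2F factors. CDKN2C, an INK4 protein, binds CDK4 and CDK6, while CDKN1A, CDKN1B and CDKN1C, the Cip/Kip proteins, bind cyclin and kinase together. Mouse ESC are known for a short G1 with much cyclin E and CDK2 activity, and neural progenitors for their use of D cyclins and for lengthening G1 as they mature.

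Promoter windows are printed for a falling cyclin and for the inhibitors with the largest decrease and increase on exons, Ccne1, Cdkn1a and Cdkn2c. Each is the 250 bases before an annotated start, 5′ to 3′ on the gene's strand, from RefSeq with build GRCm38.p6. Capitals mark a GC box (GGGCGG on either strand) or the tandem p53 consensus element of 20 bases with at most 1 mismatch and no spacer. RefSeq gives 2 starts for Cdkn1a and 2 for Cdkn2c.
Ccne1 at chr7:38107491-38107740, minus strand: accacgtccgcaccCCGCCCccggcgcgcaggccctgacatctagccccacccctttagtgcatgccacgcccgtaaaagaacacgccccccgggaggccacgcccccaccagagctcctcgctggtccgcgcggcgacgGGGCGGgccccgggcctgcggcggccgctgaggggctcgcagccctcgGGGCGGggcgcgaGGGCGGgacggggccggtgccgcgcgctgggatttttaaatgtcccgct
Cdkn1a first start, chr17:29090729-29090978, plus strand: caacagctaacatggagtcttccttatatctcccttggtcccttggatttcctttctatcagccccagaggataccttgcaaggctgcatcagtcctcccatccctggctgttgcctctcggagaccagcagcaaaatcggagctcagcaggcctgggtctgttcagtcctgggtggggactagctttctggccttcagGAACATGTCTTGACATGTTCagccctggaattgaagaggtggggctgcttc
Cdkn1a second start, chr17:29093519-29093768, plus strand: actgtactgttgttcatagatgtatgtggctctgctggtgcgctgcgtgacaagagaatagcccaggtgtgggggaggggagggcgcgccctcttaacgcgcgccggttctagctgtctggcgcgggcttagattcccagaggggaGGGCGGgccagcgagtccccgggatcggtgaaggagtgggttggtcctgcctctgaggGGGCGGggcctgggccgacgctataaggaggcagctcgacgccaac
Cdkn2c first start, chr4:109666757-109667006, minus strand: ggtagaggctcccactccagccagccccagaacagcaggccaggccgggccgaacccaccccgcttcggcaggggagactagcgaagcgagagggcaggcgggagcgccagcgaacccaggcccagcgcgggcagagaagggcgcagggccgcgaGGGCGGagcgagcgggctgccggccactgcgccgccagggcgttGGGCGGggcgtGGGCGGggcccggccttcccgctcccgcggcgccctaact
Cdkn2c second start, chr4:109665373-109665622, minus strand: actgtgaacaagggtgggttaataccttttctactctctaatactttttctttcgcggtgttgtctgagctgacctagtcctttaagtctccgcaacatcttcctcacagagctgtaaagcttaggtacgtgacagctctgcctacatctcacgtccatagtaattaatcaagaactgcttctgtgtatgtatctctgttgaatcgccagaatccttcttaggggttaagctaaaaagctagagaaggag

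Windows were matched for 7 of the 10 genes, 10 windows in all. A GC box lay in 7 of these windows, and in 32.7% of 32817 windows of the same length over all genes. The 7 windows held 59.6% to 77.2% G or C bases, against 53.2% over all windows, so base composition differed too. The p53 element was found once, in the first window of Cdkn1a, where it begins 51 bases before the start, and 0.0762% of all windows hold it. The E2F letters TTTCCCGC and TTTGGCGC, on either strand, were in none of the 10 windows and in 1.3% of all windows. The motifs overlap no other motif searched, and a match is a description of letters only.

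Exon levels are the authors' RPKM (reads per kilobase, scaled to sequencing depth), pooled within each cell type, so they carry no replicate spread, and being per length they can be set side by side between genes. In bulk RNA, fewer cells of a type and less RNA per cell cannot be told apart. In the authors' deposited table of fold changes, 8 of the 10 genes passed an adjusted p of 0.05, 3 higher and 5 lower in NPC. Whether those p-values count technical libraries as replicates is not known here. If so, they measure technical spread in part. Of 12509 tested genes 66.2% passed, 32.3% higher and 33.9% lower, so the number that passed lies near that of all genes. All 8 changed at least 4-fold, a size chosen after the values were seen, against 30.5% of tested genes. The median log2 fold change was -1.35 over the 10 genes and -0.07 over all tested genes.

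**Figure D1:**
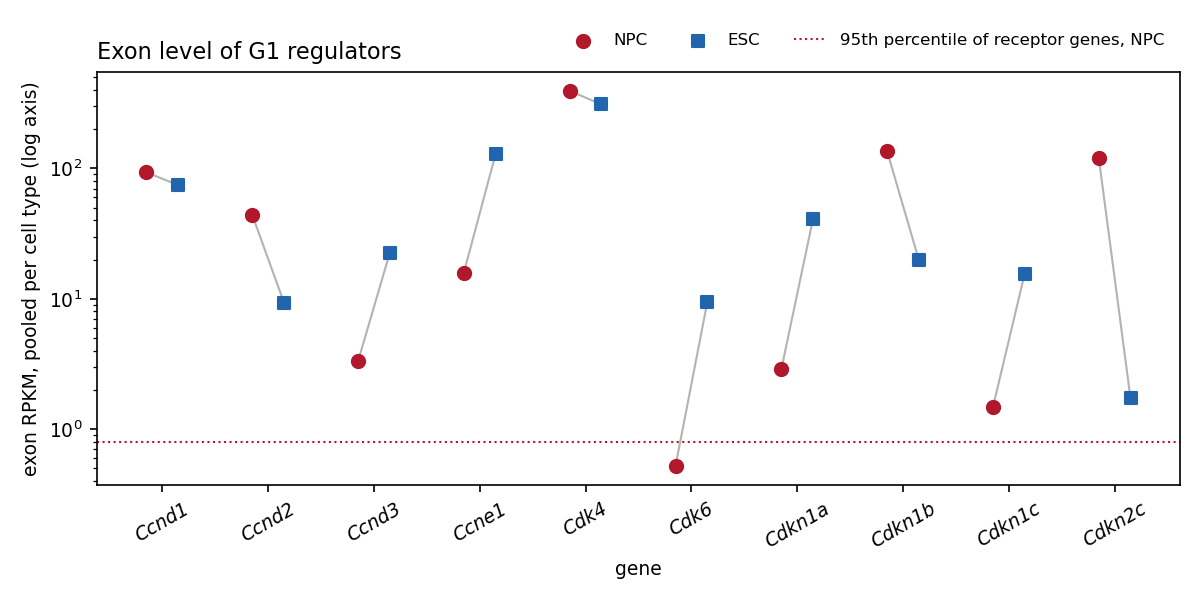
Exon RPKM of the 10 genes in NPC (circles) and ESC (squares), pooled per cell type by the authors, on a log axis. The dotted line is the 95th percentile of chemosensory receptor genes in NPC, 0.797 RPKM; Cdk6 in NPC, at 0.522 RPKM, is the only value below it.

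Intron levels come per biological replicate, in RPKM, from denominators of 5792056 and 5186790 reads in NPC replicates 1 and 2 and 5767704 and 6500767 in ESC replicates 1 and 2. NPC replicate 1 stands apart. Its median over 242 chemosensory receptor genes, which neither cell type is known to use, was 0.748 RPKM, against 0.0829 in NPC replicate 2 and 0.0295 and 0 in ESC replicates 1 and 2. Exon receptor medians were 0.279 RPKM in NPC and 0 in ESC over 1466 genes. The cell labels held on their markers, with all 5 ESC markers lower and all 5 NPC markers in the exon table higher in NPC. Of 10 fibroblast markers, listed because of the feeders, 6 fell, 1 rose and 3 did not pass, and without Twist1 (left out after its value was seen, 26.8 RPKM in NPC and 6.99 in ESC) the other 9 summed to 11.3 RPKM in NPC and 77.3 in ESC. None of them was at 0 in either cell type. Of 5 neuronal markers 2 rose, 2 fell and 1 was not tested, with sums of 423 RPKM in NPC and 240 in ESC.

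Introns were tested with limma on log2(RPKM + 1), a scale that understates changes of low genes, where the mean over the 4 columns reached 1 RPKM. Of the 10 genes, 7 reached that level and 3 (Ccnd2, Cdk6 and Cdkn1c) did not. Of the 7, 4 passed an adjusted p of 0.05, 1 higher and 3 lower in NPC, while 47.3% of 8811 tested genes passed, 13.2% higher and 34% lower. With columns scaled to equal medians, 28.9% passed higher and 22.6% lower, since scaling moved the median change of all tested genes to 0.11 from -0.43 on the log2 scale. The tested members had a median of -0.58. Replicates of NPC and ESC did not overlap for 4 of the 7 genes, 1 higher and 3 lower in NPC, nor for 77.4% of all tested genes, 21.9% higher and 55.5% lower.

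**Figure D2:**
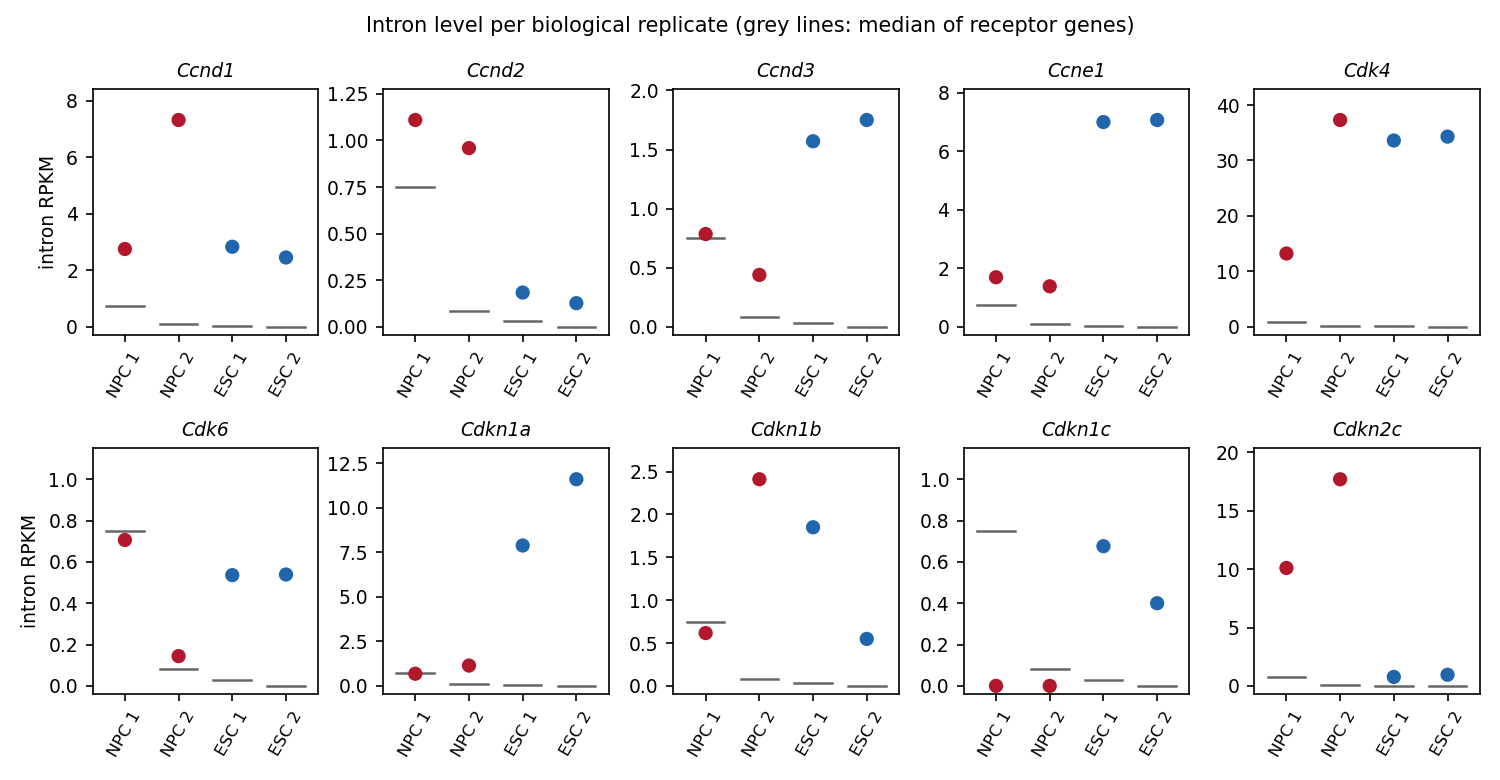
Intron RPKM of each gene in the 2 NPC (red) and 2 ESC (blue) replicates, with a separate scale from 0 for each gene; grey lines give each replicate's median over 242 receptor genes. In NPC replicate 1, Cdk6, Cdkn1a, Cdkn1b and Cdkn1c lie below that line, while Cdkn2c lies far above it in both NPC replicates.

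Among the D cyclins, the partners of CDK4 and CDK6, Ccnd1 kept the highest exon level in each cell type while Ccnd2 and Ccnd3 changed in opposite directions. Ccnd1 (Entrez 12443, introns within chr7:152120070-152125400 of mm9) was at 93.4 RPKM on exons in NPC and 74.3 in ESC, and did not pass in the authors' deposited table (log2 fold change 0.18, adjusted p = 0.517). Its introns were at 2.75 and 7.32 RPKM in NPC replicates 1 and 2, against 2.83 and 2.45 in ESC replicates 1 and 2. Only NPC replicate 2 lay above the ESC values, and the groups overlap. In limma the log2 fold change of Ccnd1 introns was 0.62 (SE 0.373, adjusted p = 0.19), and 1.19 (adjusted p = 0.0028) without NPC replicate 1. In that fit 5 of the 7 genes passed, 2 higher and 3 lower in NPC, as did 70.5% of all genes tested, 25.1% higher and 45.4% lower. With columns scaled to equal medians limma gave 1.12 (adjusted p = 0.00752).

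Ccnd2 (Entrez 12444, introns within chr6:127080506-127100599) rose to 44.0 RPKM on exons in NPC, against 9.34 in ESC (authors' deposited table, log2 fold change 2.09, adjusted p = 2.3e-18). Its introns were at 1.11 and 0.959 RPKM in NPC replicates 1 and 2 and 0.183 and 0.126 in ESC replicates 1 and 2, so the groups do not overlap. These values rest on 110 and 85 reads in NPC and 18 and 14 in ESC. The mean was below the filter, and without a filter limma gave Ccnd2 a log2 fold change of 0.82 (SE 0.202, adjusted p = 0.0272), where 20.5% of 18393 genes passed, 7.71% higher and 12.7% lower in NPC. NPC replicate 2 alone, with its low receptor level, had 6.28 times the intron reads of ESC per denominator read (exact 95% interval 4.14 to 9.75). Such intervals cover counting error only.

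Ccnd3 (Entrez 12445) fell to 3.32 RPKM on exons in NPC, against 22.5 in ESC (authors' deposited table, log2 fold change -2.88, adjusted p = 1.5e-26). The intron stretch measured is 881 bases long (chr17:47730802-47731682) and lies 88802 bases after the start in the intron table, and RefSeq lists a second, later start. Introns were at 0.784 and 0.438 RPKM in NPC replicates 1 and 2 (4 and 2 reads), against 1.57 and 1.75 in ESC replicates 1 and 2 (8 and 10 reads). Both NPC values lie below both ESC values, and limma gave a log2 fold change of -0.73 (SE 0.186, adjusted p = 0.00744). The value in NPC replicate 1 is 1.05 times its receptor median, and with NPC replicate 2 alone the read ratio was 0.263, with an exact 95% interval of 0.0296 to 1.1 that includes no change. The limma call was lost without limma's trend (adjusted p = 0.0544) and with scaled columns (-0.37, adjusted p = 0.35). A processed pseudogene, Ccnd3-ps, is annotated, and whether reads are shared with it was not tested, so the exon level is uncertain. The protein-coding gene Bysl also overlaps Ccnd3 on the other strand, and the sources do not state whether counting used strand.

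On exons, the 3 D cyclins summed to 141 RPKM in NPC and 106 in ESC. Ccnd1 made up 66.4% of that sum in NPC and 70.0% in ESC, Ccnd2 31.3% in NPC and 8.79% in ESC, and Ccnd3 2.36% in NPC and 21.2% in ESC. The order of levels was thus Ccnd1, Ccnd2, Ccnd3 in NPC and Ccnd1, Ccnd3, Ccnd2 in ESC, with no spread to say which neighbours differ. The intron order was the same in each NPC and each ESC replicate, with Ccnd3 at 16.9% and 5.02% of the intron sum in NPC replicates 1 and 2 and 34.3% and 40.4% in ESC replicates 1 and 2.

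Ccne1, which activates CDK2 at the border of S phase, lay below Ccnd1 and Ccnd2 on exons in NPC and was the highest of the 4 cyclins in ESC. Ccne1 (Entrez 12447, introns within chr7:38883657-38892340) was at 15.9 RPKM on exons in NPC and 129 in ESC (authors' deposited table, log2 fold change -3.13, adjusted p = 8.0e-33). It was 10.1% of the summed exon RPKM of the 4 cyclins in NPC and 54.8% in ESC. Introns were at 1.69 and 1.38 RPKM in NPC replicates 1 and 2, against 7.0 and 7.07 in ESC replicates 1 and 2. The NPC values lie far below the ESC values, with 74 and 54 reads in NPC and 305 and 347 in ESC. In limma the log2 fold change was -1.67 (SE 0.288, adjusted p = 0.000766), and it passed with any of the 4 replicates left out. Of 8 markers of dividing cells, 7 fell on exons and none rose, where 33.9% of all tested genes fell. The 1 that did not pass was Mki67, at 285 RPKM in NPC and 205 in ESC. The 8 summed to 993 RPKM in NPC and 2202 in ESC. On introns 3 of the 8 fell in limma, where 34% of all tested genes fell. The part of these markers in the fall of Ccne1 was not tested.

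**Figure D3:**
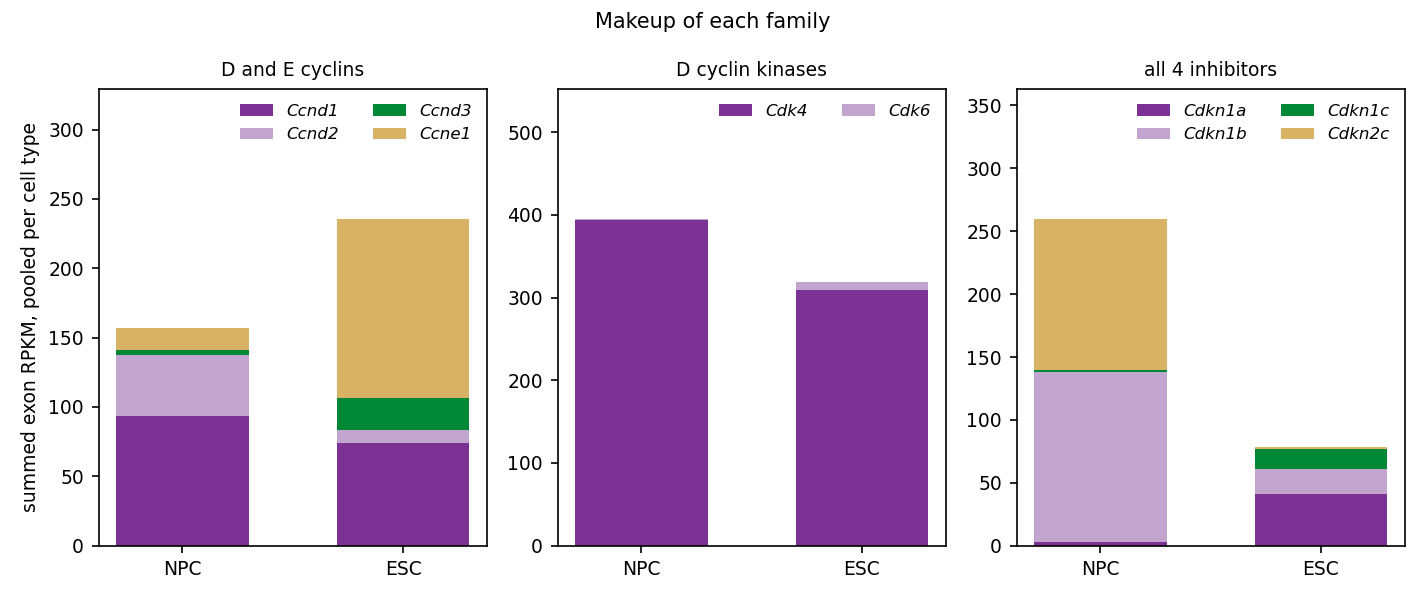
Summed exon RPKM, pooled per cell type, of the 4 cyclins (left), the D cyclin kinases (middle) and the 4 inhibitors (right), in NPC and ESC. Ccne1 makes up 10.1% of the cyclin sum in NPC and 54.8% in ESC, and Cdkn1b with Cdkn2c nearly all of the inhibitor sum in NPC.

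Cdk4 was far above Cdk6 in both cell types, and only Cdk6 passed the exon test. Cdk4 (Entrez 12567, introns within chr10:126500816-126503984), a catalytic partner of D cyclins, was at 394 RPKM on exons in NPC and 309 in ESC. It did not pass in the authors' deposited table (log2 fold change 0.21, adjusted p = 0.535). Its introns were at 13.2 and 37.3 RPKM in NPC replicates 1 and 2, against 33.6 and 34.3 in ESC replicates 1 and 2. NPC replicate 1 lies below the ESC values and NPC replicate 2 above them. The limma log2 fold change was -0.58 (SE 0.844, adjusted p = 0.59), with values of 0.13 (adjusted p = 0.317) without NPC replicate 1 and -1.29 (adjusted p = 0.00163) without NPC replicate 2. It was 0.06 (adjusted p = 0.877) with scaled columns. Tspan31 overlaps the end of Cdk4 on the other strand, and reads of the pair cannot be told apart unless counting used strand, which the sources do not state.

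Cdk6 (Entrez 12571, introns within chr5:3343972-3520644), the other partner of D cyclins, fell to 0.522 RPKM on exons in NPC, against 9.38 in ESC (authors' deposited table, log2 fold change -4.42, adjusted p = 2.93e-16). The NPC level is below the 95th percentile of receptor genes there, 0.797 RPKM, so the size of the fold rests on a level near theirs. Cdk6 made up 0.132% of the exon sum of both kinases in NPC and 2.95% in ESC. On introns the NPC replicates disagreed, at 5.06% and 0.384% in replicates 1 and 2, against 1.57% and 1.55% in ESC replicates 1 and 2. Of the mean intron sum Cdk6 was 2.72% in NPC and 1.56% in ESC. Its introns, 175591 bases in all and the longest of the 10 genes, were at 0.706 and 0.144 RPKM in NPC replicates 1 and 2, against 0.536 and 0.539 in ESC replicates 1 and 2. The groups overlap because NPC replicate 1 lies highest of the 4 and NPC replicate 2 lowest. In NPC replicate 1 the value is 0.944 times the receptor median and in NPC replicate 2 it is 1.73 times. With no filter limma gave Cdk6 introns a log2 fold change of -0.14 (SE 0.255, adjusted p = 0.687). NPC replicate 2 alone, on 131 reads, had 0.268 times the intron reads of ESC (exact 95% interval 0.222 to 0.321). Both NPC replicates together had 0.819 times (0.749 to 0.896), with 718 of the reads from NPC replicate 1. That interval covers counting error only, not the disagreement of the NPC replicates, so it shows no decrease common to both.

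On exons the order of the inhibitors differed between the cell types. Of their summed exon RPKM, Cdkn1b made up 52.1% in NPC and 25.3% in ESC, and Cdkn2c 46.2% in NPC and 2.19% in ESC. Cdkn1a was 1.11% of that sum in NPC and 52.7% in ESC, and Cdkn1c 0.572% in NPC and 19.9% in ESC. The sum itself was 259 RPKM in NPC and 78.3 in ESC. On introns Cdkn2c made up most of the sum in NPC (88.6% and 83.3% in replicates 1 and 2, against 6.86% and 7.08% in ESC replicates 1 and 2). Cdkn1b was 5.41% and 11.3% of the intron sum in NPC replicates 1 and 2, against 16.6% and 4.08% in ESC replicates 1 and 2. Its larger exon share in NPC was not seen there, but these shares rest on few reads. Cdkn1b had 2 and 7 intron reads in NPC replicates 1 and 2 and 6 and 2 in ESC, too few to decide. Cdkn1a was 6.0% and 5.37% in NPC replicates 1 and 2, against 70.5% and 85.9% in ESC replicates 1 and 2.

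Cdkn2c (Entrez 12580, introns within chr4:109334232-109337622), the INK4 inhibitor also called p18, was at 120 RPKM on exons in NPC and 1.72 in ESC. By the authors' deposited table it rose with a log2 fold change of 5.98 (adjusted p = 3.19e-77), and 1.76% of tested genes had a higher one. Introns were at 10.1 and 17.7 RPKM in NPC replicates 1 and 2, against 0.767 and 0.953 in ESC replicates 1 and 2. Both NPC values lie above both ESC values and far above their receptor medians, with 198 and 312 reads in NPC and 15 and 21 in ESC. In limma the log2 fold change was 2.96 (SE 0.363, adjusted p = 9.4e-05). Without ESC replicate 1 or 2 it was 2.88 or 3.03 and did not pass (limma adjusted p = 0.136 and 0.105). There the lone ESC sample is assumed to vary as the NPC pair does.

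Cdkn1b (Entrez 12576, introns within chr6:134871413-134871973), the Cip/Kip inhibitor p27 that holds cells out of S phase, rose to 135 RPKM on exons in NPC, against 19.8 in ESC (authors' deposited table, log2 fold change 2.61, adjusted p = 1.68e-28). Its intron stretch of 561 bases held 2 and 7 reads in NPC replicates 1 and 2 and 6 and 2 in ESC replicates 1 and 2, or 0.616 and 2.41 RPKM in NPC and 1.85 and 0.548 in ESC. The groups overlap, and the limma log2 fold change of 0.16 (SE 0.337, adjusted p = 0.716) changed sign among the alternatives. Intron reads of Cdkn1b in NPC were 1.26 times those in ESC, with an exact 95% interval of 0.431 to 3.74 that covers counting error only. With NPC replicate 2 alone the intron read ratio was 2.07 (0.639 to 6.53). The exon RPKM ratio was 6.82, from pooled values without spread, and its difference from the intron ratio was not tested.

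Cdkn1a (Entrez 12575, introns within chr17:29235783-29236288), the inhibitor p21 that p53 induces, fell to 2.88 RPKM on exons in NPC, against 41.2 in ESC (authors' deposited table, log2 fold change -3.93, adjusted p = 1.01e-36). Its intron stretch of 506 bases lies 7852 bases after the start. Introns were at 0.682 and 1.14 RPKM in NPC replicates 1 and 2 (2 and 3 reads), against 7.88 and 11.6 in ESC replicates 1 and 2 (23 and 38 reads). Both NPC values lie below both ESC values, and limma gave a log2 fold change of -2.48 (SE 0.310, adjusted p = 0.000105). The ratio of reads was 0.0916, with an exact 95% interval of 0.0287 to 0.226. The value in NPC replicate 1 is below its receptor median.

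Cdkn1c (Entrez 12577, introns within chr7:150644927-150646757), the inhibitor p57 and an imprinted gene expressed from the maternal copy, fell to 1.48 RPKM on exons in NPC, against 15.6 in ESC (authors' deposited table, log2 fold change -3.58, adjusted p = 2.41e-16). Its introns had 0 reads in both NPC replicates, which allows up to 0.336 and 0.376 RPKM (the level of 3 reads), against 0.676 and 0.4 RPKM in ESC replicates 1 and 2. The ESC values rest on 6 and 4 reads, taking the longer of 2 intron lengths that give whole reads. With no filter limma gave a log2 fold change of -0.61 (SE 0.274, adjusted p = 0.164). Of the 10 fibroblast markers 6 fell on exons and Twist1 rose. In the authors' deposited table Col1a2 (log2 fold change -2.72), Dcn (-1.27) and Lum (1.08) did not pass. The 10 summed to 38.1 RPKM on exons in NPC and 84.3 in ESC. On introns they summed to 9.72 and 3.77 in NPC replicates 1 and 2 and 4.0 and 2.14 in ESC replicates 1 and 2. In NPC replicate 1 the receptor median was 0.748 RPKM for a single gene. The part of the fibroblast markers in the decreases of Cdkn1a, Cdkn1c, Cdk6 and Ccnd3 was not tested.

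Exon and intron changes were set side by side on log2(RPKM + 1), with no test because exon values have no replicates. Over 8380 genes tested on both, the exon change exceeded the intron change by a median of 0.42, with 5% of genes below -1.29 and 5% above 1.97. Of the 10 genes, Cdkn1b (2.55) and Cdkn2c (2.52) lay above that range, and Cdk6 (-2.63), Cdkn1c (-2.13) and Ccnd3 (-1.71) below it. Cdk6 and Cdkn1c are below the intron filter and so not among the 8380. The Cdkn1b intron change rests on few reads. They were 2 and 7 in NPC replicates 1 and 2 and 6 and 2 in ESC replicates 1 and 2. The exact 95% interval of the Cdkn1b intron read ratio, 0.431 to 3.74, is wide, so its difference is uncertain. With NPC replicate 2 alone on introns, which was tried after seeing the data, the range was -1.36 to 1.73, and the differences of these 5 genes were 2.01, 2.14, -2.34, -2.13 and -1.56 in the same order. The other 5 genes differed by -1.28 (Ccne1) to 1.31 (Ccnd2). Values of genes with low introns depended on the pseudocount. With 0.1 in place of 1, Cdkn1c was at -0.67, Ccnd2 at 0.06, Ccnd3 at -1.37 and Cdk6 at -3.41, while Cdkn1b was at 2.51 and Cdkn2c at 2.22. With the receptor level subtracted, Ccnd3 was at -1.29. The ranges over all genes given above are for a pseudocount of 1 without subtraction, so they do not apply to these values.

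**Figure D4:**
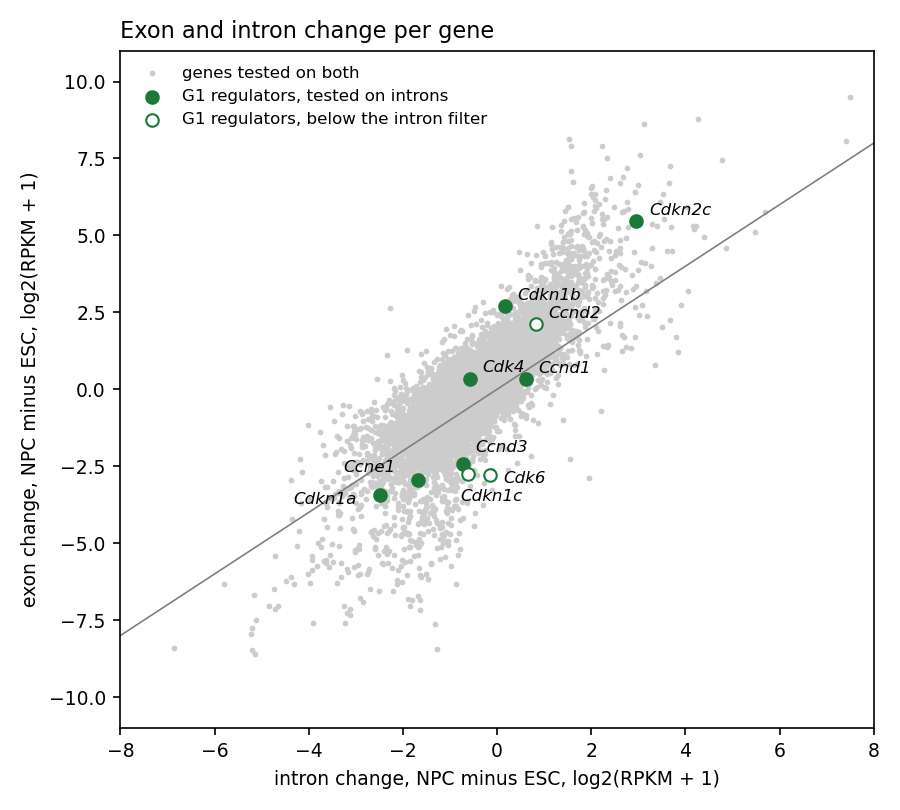
Exon change against intron change, NPC minus ESC on log2(RPKM + 1), for 8380 genes tested on both (grey) and the 10 genes (green; open circles are below the intron filter). The line marks equal change; Cdkn1b and Cdkn2c lie well above it and Cdk6 and Cdkn1c well below.

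Of 42 other genes of the pathway, 41 were in the exon table and 39 were tested, and in the authors' deposited table of fold changes 3 rose, 20 fell and 16 did not pass, with a median log2 fold change of -0.64. Of all genes tested on exons 66.2% passed, 32.3% higher and 33.9% lower, so the number that passed is no result about the pathway, nor are the counts of its separate lists. On introns 1 of 35 rose and 17 fell in limma, where 13.2% of all tested genes rose and 34% fell, 47.3% in all. Among pocket proteins, which hold E2F in check, 1 of 2 rose on exons: Rbl2 (p130, typical of resting cells) was at 31.9 RPKM in NPC and 17.8 in ESC (log2 fold change 0.72 in the authors' deposited table). Its introns fell in limma (log2 fold change -1.13, SE 0.237, adjusted p = 0.00249), with 1.45 and 1.59 RPKM in NPC replicates 1 and 2 and 4.34 and 4.72 in ESC replicates 1 and 2. Of 10 E2F and DP factors, 5 fell and none rose. They include E2f4, which works mainly as a repressor, at 20.9 RPKM in NPC and 125 in ESC, and the DNA binding partner Tfdp1, at 17.7 in NPC and 47.0 in ESC.

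Of 9 other G1/S cyclins, kinases and activators, 5 fell and none rose on exons. Cdc25a, the phosphatase that activates CDK2, was at 15.7 RPKM in NPC and 51.1 in ESC, and Cdc37, a cochaperone of CDK4, at 93.8 in NPC and 186 in ESC. Of 3 other inhibitors tested, Cdkn3, a phosphatase of CDKs, rose (15.5 RPKM in NPC and 5.38 in ESC) and Cdkn2b, an INK4 protein, fell (8.64 in NPC and 14.9 in ESC). Of 10 ubiquitin ligase parts, 1 rose and 6 fell. Fbxo4 was at 7.62 RPKM in NPC and 1.69 in ESC. Fbxo5, an inhibitor of the anaphase-promoting complex, was at 26.1 in NPC and 113 in ESC, and Cks1b, which helps SCF-SKP2 bind CDKN1B, at 66.7 in NPC and 192 in ESC. Of 5 tested p53 and FoxO genes, 3 fell and none rose, among them Trp73 (0.107 RPKM in NPC and 5.76 in ESC) and Trp53 (16.3 in NPC and 109 in ESC). The NPC level of Trp73 is below the exon receptor median there, 0.279 RPKM, so the size of its fold is uncertain.

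**Figure D5:**
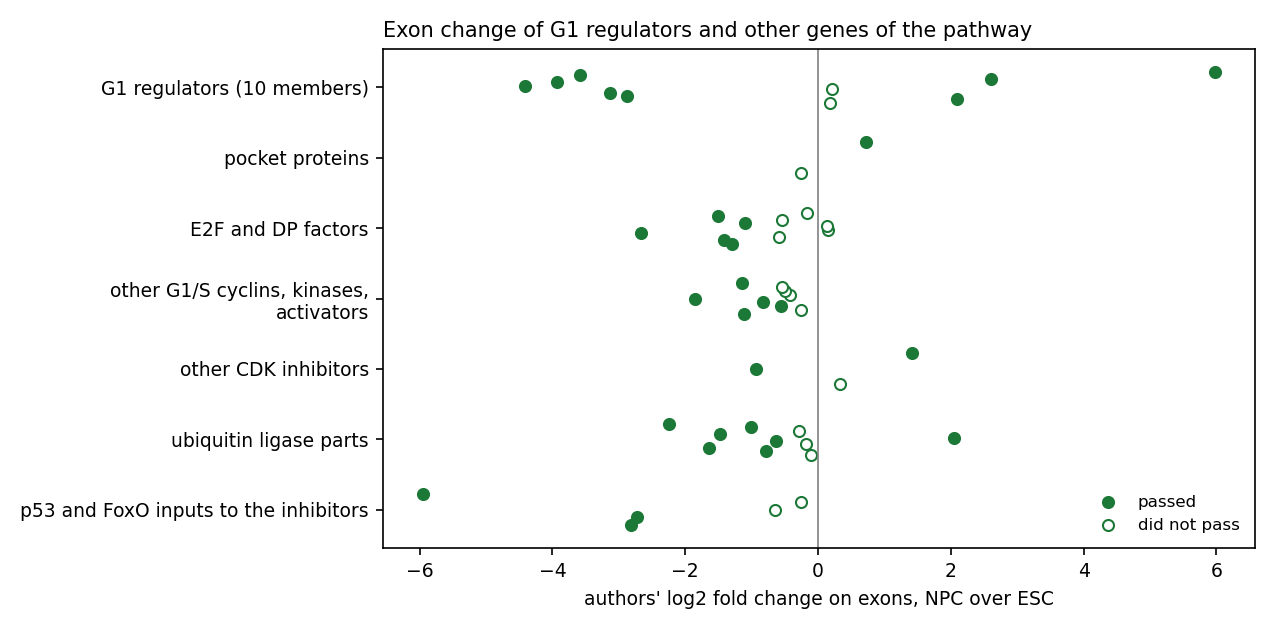
The authors' log2 fold change on exons, NPC over ESC, for the 10 genes (top) and 39 other tested genes of the pathway by list; filled points passed an adjusted p of 0.05. The 10 genes spread from -4.42 (Cdk6) to 5.98 (Cdkn2c), while the other lists spread from -5.95 (Trp73) to 2.05 (Fbxo4). In NPC, Cdk6 is below the 95th percentile of receptor genes on exons and Trp73 below their median, so the size of both folds is uncertain.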

How the data were processed

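RNA without ribosomal RNA was sequenced as short single ends from ScriptSeq v2 libraries, per the labels' protocols. The authors deposited exon RPKM pooled per cell type, with its log2 fold change (NPC over ESC) and the adjusted p-value. The submitters' processing notes name DESeq2 1.10.0 and build mm9. Which aligner, counter and annotation were used, and whether strand counted, is not stated there. The authors also deposited intron values per biological replicate, technical libraries combined. Their unit, RPKM, was inferred: values times intron length gave whole multiples of 1 step per column, within 0.001 reads, which yielded the read numbers used to describe depth. Unnamed rows were left out, and 18162 exon genes had an adjusted p-value.

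Introns were tested with limma 3.58.1 (R 4.3.3) on log2(RPKM + 1) where the mean over columns reached 1 RPKM, with the mean-variance trend, Benjamini-Hochberg adjustment over all genes and a threshold of 0.05. The limma p-values measure the spread between 2 and 2 biological replicates, and whether these came from separate cultures is not given. Named pathway genes are, per list, at most the 2 largest increases and 2 largest decreases that passed on exons. The genes and lists were chosen with earlier results of these data known. Overlapping genes come from GENCODE M21, and 7 of the 10 genes overlap another annotated gene on the opposite strand.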

Additional observations from a re-analysis of the deposited data

How the results depend on the processing

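The count of exon calls among the 10 genes was also 8 with no filter or at an adjusted p of 0.01. It was 6 where the mean reached 10 RPKM, a level that Cdk6 and Cdkn1c, both called in the main setting, did not reach. The shares of all genes that pass in these settings are not given, so the counts describe the settings only. On introns, leaving out each replicate in turn gave 2 to 5 limma calls among the 10 genes (4 with all replicates), 4 to 28 among the other pathway genes (18) and 1758 to 6246 over all genes (4165). Subtracting the receptor median of each column left 2508 calls over all genes. The low counts are those without an ESC replicate, where Ccne1 and Cdkn1a were the 2 calls. The Cdk4 intron log2 fold change turned to 0.06 with scaled columns and ran from -1.29 to 0.13 with replicates left out. That of Cdkn1b turned to -0.20 with the receptor level subtracted and ran from -0.38 to 0.70 with replicates left out. On introns, Ccnd1 was 59.2% of D cyclins in ESC, Ccnd2 17.5% in NPC and 3.45% in ESC, Ccnd3 10.9% in NPC and 37.3% in ESC, Cdk4 98.4% of the kinases in ESC, and Cdk6 2.72% in NPC and 1.56% in ESC. The cause of these shifts was not tested.

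Replicate numbers share only a number: over 8811 genes, the replicate 1 minus replicate 2 differences of NPC and ESC correlated at 0.019. With the number as a replicate block, limma called 4 of the 7 tested members, 17 of 35 tested other pathway genes and 3777 of 8811 genes in all. Depth limits Cdkn1b, Cdkn1c, Cdkn1a and Ccnd3 most, with at most 10 intron reads in any replicate except Cdkn1a in ESC.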
